A study of Mus musculus with 4 samples.

Results

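*Cd40*, *Traf1*, *Traf3*, *Birc3* and *Bcl2l1* are 5 genes of TNF receptor signaling and NF-κB-controlled survival, and they were picked by gene symbol from the 2179 genes listed in the authors' table of large intestinal ILC3s. All 5 were listed. *Rag1*-/- littermates with a GFP reporter allele received 1 µg of the agonistic antibody α-DR3 (clone 4C12) or PBS, and 3 days later ILC3s were sorted as Lin-GFP+ cells of the lamina propria. Mice of both groups lacked *Rag1*, so no mature T or B cells were present, and both groups carried the GFP reporter used for the sort. Each group had 2 libraries, and each library was made from the pooled cells of several mice. The table gives 1 mean FPKM per group and gene, where FPKM is the number of sequenced fragments scaled for transcript length and library size. The study also describes values of the single libraries in a supplement, which are not used here, so the spread between replicates and the depth of each library are not given, and no p-value is given for any difference.

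CD40 is a TNF receptor family member best known on B cells, dendritic cells and macrophages, and it passes its signal on through TRAF adaptors. DR3, the target of the antibody, is a TNF receptor with a death domain, and it also reaches NF-κB through TRAF proteins and the ubiquitin ligases cIAP1 and cIAP2. In resting cells TRAF3 brings these ligases to the kinase NIK and keeps the alternative NF-κB pathway off, while TRAF1, cIAP2 (*Birc3*) and Bcl-xL (*Bcl2l1*) are encoded by genes that NF-κB can induce. Bcl-xL holds back the mitochondrial route of apoptosis.

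The 5 genes did not move in one direction. The mean FPKM of *Cd40*, *Traf3* and *Traf1* was higher in the α-DR3 group, by 6.12-fold, 2.37-fold and 1.60-fold, and that of *Bcl2l1* and *Birc3* was lower, by 1.80-fold and 1.59-fold. All 3 higher genes and both lower genes were past 1.5-fold, the limit the study set. Among all 2179 listed genes, 37.1% were at least 1.5-fold higher and 38.4% at least 1.5-fold lower by the same ratio of means. The authors had put a gene in the table only if it differed between these same groups, at a p under 0.05, and if its mean reached more than 1 FPKM in a group. Being listed and being past 1.5-fold are therefore a description of these genes and no separate evidence that they differed. All 5 ratios kept their direction with each of 3 scalings between groups, but *Traf1* came under 1.5-fold with each (log2 ratio 0.29, 0.18 and 0.42 in place of 0.68).

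**Figure D1:**
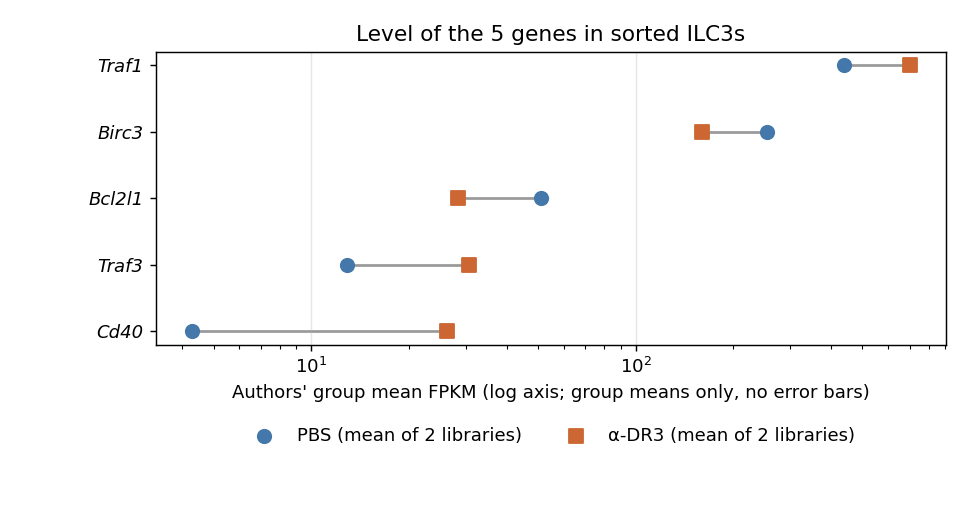
Mean FPKM of the 5 genes in PBS (circles) and α-DR3 (squares), on a log axis, each point being the authors' mean of 2 libraries with no error bar. *Cd40*, *Traf3* and *Traf1* lie to the right in α-DR3, *Birc3* and *Bcl2l1* to the left, and *Traf3* passes *Bcl2l1* in the order of levels.

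NF-κB acts by binding DNA near the genes it controls. RefSeq promoters on GRCm38.p6, from 250 bases before to 50 after a start site, were matched for 4 of the 5 genes, with 6 start sites in all and none matched for *Cd40*. The NF-κB consensus was found on either strand in 2 of these 6 windows, at *Traf3* and at the middle 1 of 3 *Bcl2l1* start sites, 1 gene with a higher and 1 with a lower mean in α-DR3. Of all 32851 promoters 4.51% held this motif, and of the 2228 promoters of listed genes 6.51% did. The sequences up to the start site are shown for these 2 and, as windows of a higher and a lower gene with no such match, for *Traf1* and *Birc3*. They read 5′ to 3′ on the strand of the gene, with capitals for the NF-κB match.
Traf3, chr12:111166120-111166369, plus strand: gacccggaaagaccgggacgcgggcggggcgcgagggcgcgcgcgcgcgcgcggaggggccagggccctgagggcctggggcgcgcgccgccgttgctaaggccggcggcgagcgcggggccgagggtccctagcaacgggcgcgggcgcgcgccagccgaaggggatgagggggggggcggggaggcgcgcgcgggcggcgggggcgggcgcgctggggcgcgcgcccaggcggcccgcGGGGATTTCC
Bcl2l1, chr2:152830718-152830967, minus strand: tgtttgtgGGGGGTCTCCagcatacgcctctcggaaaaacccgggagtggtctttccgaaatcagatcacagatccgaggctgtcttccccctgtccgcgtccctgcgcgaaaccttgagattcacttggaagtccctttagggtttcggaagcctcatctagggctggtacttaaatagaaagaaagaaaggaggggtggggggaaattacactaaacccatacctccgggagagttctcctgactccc
Traf1, chr2:34961773-34962022, minus strand: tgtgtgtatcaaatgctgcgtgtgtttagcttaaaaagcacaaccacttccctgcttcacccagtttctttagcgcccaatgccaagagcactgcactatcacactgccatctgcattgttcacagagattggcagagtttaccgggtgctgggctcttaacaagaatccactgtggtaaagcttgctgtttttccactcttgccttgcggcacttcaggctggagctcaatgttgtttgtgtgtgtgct
Birc3, chr9:7873171-7873420, minus strand: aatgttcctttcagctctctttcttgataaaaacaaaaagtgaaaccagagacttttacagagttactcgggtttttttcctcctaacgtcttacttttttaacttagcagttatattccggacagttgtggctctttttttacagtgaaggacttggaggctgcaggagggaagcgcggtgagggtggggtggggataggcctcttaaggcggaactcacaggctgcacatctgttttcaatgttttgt

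The match at *Traf3* was GGGGATTTCC and ended at the last base before the start site, from position -10 to -1. The match at *Bcl2l1* was GGGGGTCTCC and lay far upstream, from position -242 to -233. *Traf3* starts in a window of 84.0% GC with 59 CpG dinucleotides, a GC content above that of 99.8% of all promoters. The *Bcl2l1* window with the match had 55.7% GC and 14 CpG. The windows of *Traf1* (48.7% GC, 4 CpG) and *Birc3* (43.0% GC, 7 CpG) were below the median GC of all promoters, 52.7%. The AP-1 site TGANTCA, the GAS element TTCNNNGAA that STAT proteins bind, the CRE TGACGTCA and the TATA box TATAAA were found in none of the 6 windows, and 7.81%, 8.30%, 1.79% and 13.6% of all promoters held them. A match describes letters, and its absence says only that they are not in these 300 bases.

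*Cd40* (ENSMUSG00000017652.8; chromosome 2 of GRCm38, 165055627 to 165072948, plus strand, GENCODE M21) was the lowest of the 5 genes in PBS and had the largest ratio. Its mean was 4.29 FPKM in PBS and 26.2 FPKM in α-DR3, a log2 ratio of 2.61. This ratio was above that of 96.1% of all listed genes. In rank of level among the 2179 listed genes, *Cd40* went from 1533 in PBS to 612 in α-DR3. A mean of 2 libraries bounds each of them, so no PBS library could exceed 8.57 FPKM and at least 1 α-DR3 library had 26.2 FPKM or more. At least 1 α-DR3 library thus lay above both PBS libraries.

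*Cd40* is expressed by cells other than ILC3s, and genes that mark such cells were also higher in the α-DR3 group. The sort removed Lin+ cells, and the lineage stain of the study included CD11b, CD11c, B220 and CD3. Of 26 markers of myeloid and dendritic cells, 13 were listed, and the means of all 13 were higher in α-DR3, by 1.69-fold to 11.3-fold. Of all listed genes 54.6% had a higher mean in α-DR3 and 45.4% a lower one, and 37.1% were at least 1.5-fold higher. The summed level of the 13 markers was 97.5 FPKM in PBS and 222 FPKM in α-DR3. *Zbtb46* and *Batf3*, transcription factors of dendritic cells, made up most of the PBS sum, and without them the other 11 summed to 23.4 and 94.7 FPKM, a ratio of 4.05. None of the 13 was at 0 in PBS, though 7 were under 1 FPKM there. *Adgre1*, the macrophage marker F4/80, had 0.19 and 1.18 FPKM, and *Spi1*, which encodes the myeloid transcription factor PU.1, had 1.29 and 3.38 FPKM. *Lyz2*, the macrophage lysozyme, had 4.09 and 37.9 FPKM in PBS and α-DR3, *Cd14*, a co-receptor for lipopolysaccharide, 0.64 and 3.91 FPKM, and *Cd86*, a costimulatory ligand, 0.17 and 1.79 FPKM. *Cd79b*, part of the B cell receptor, was the only listed gene of 8 B cell markers, with 10.9 and 27.2 FPKM. The defining markers *Itgax*, *Itgam*, *Csf1r* and *Flt3* of myeloid cells and *Ms4a1* of B cells were not listed, and their levels are not analysed here. The ratio of *Cd40* to *Lyz2* went from 1.05 in PBS to 0.691 in α-DR3, and that of *Cd40* to *Zbtb46* from 0.101 to 0.367. The part of other cell types in the *Cd40* level was not tested. In sorted bulk samples such as these, a changed mix of cells and changed RNA per cell cannot be told apart.

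**Figure D2:**
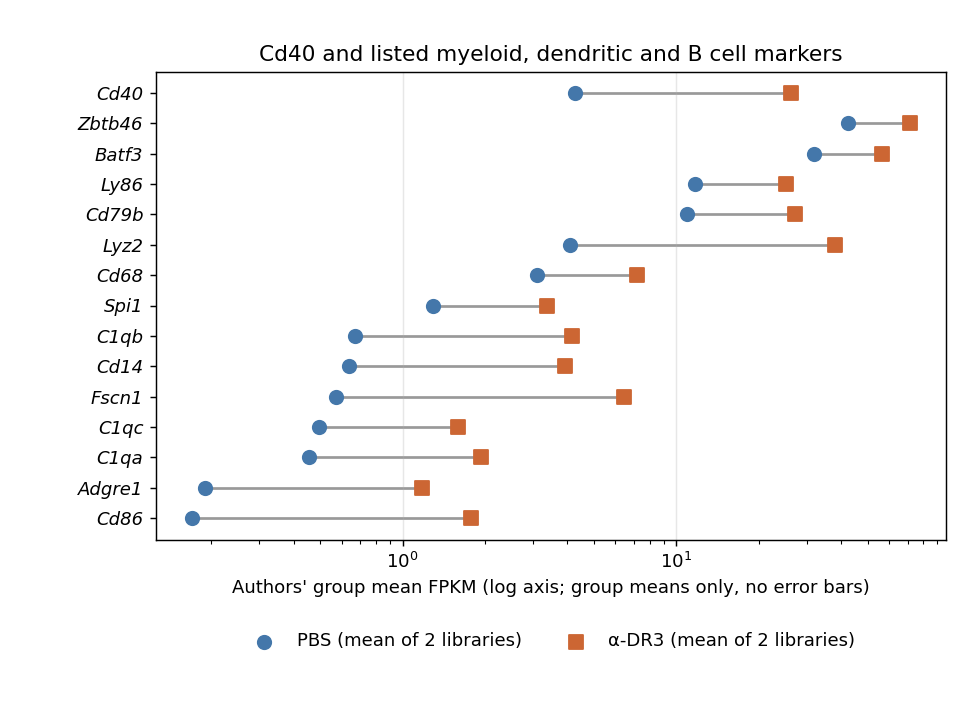
Mean FPKM on a log axis of *Cd40* and of the 14 listed markers of myeloid, dendritic and B cells, in PBS (circles) and α-DR3 (squares), each the authors' mean of 2 libraries. All 15 genes lie to the right in α-DR3, and *Lyz2* has nearly the same PBS level as *Cd40*, 4.09 against 4.29 FPKM.

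The other listed TNF receptors that signal through TRAFs without a death domain, from a list of 17, were *Tnfrsf9* and *Tnfrsf4*. *Tnfrsf9*, which encodes the costimulatory receptor 4-1BB, had a mean of 96.7 FPKM in PBS and 343 FPKM in α-DR3, a log2 ratio of 1.83. *Tnfrsf4*, which encodes OX40, had 0.955 and 4.99 FPKM, a log2 ratio of 2.38. All 3 listed receptors of this kind, *Cd40* included, were more than 1.5-fold higher, beside 37.1% of all listed genes. The ratio of *Cd40* to *Tnfrsf9* went from 0.0443 to 0.0764. Among 6 receptors with a death domain, 3 were listed and did not share a direction. *Fas* had 7.08 and 38.5 FPKM (log2 ratio 2.44), *Tnfrsf10b*, the TRAIL receptor, 6.73 and 3.87 FPKM (log2 ratio -0.80). *Tnfrsf25*, which encodes DR3 itself, had 115 and 140.1 FPKM, a log2 ratio of 0.29 that turned negative when group means were scaled to the median ratio or to the summed FPKM. Of 17 TNF superfamily ligands 9 were listed, 5 of them at least 1.5-fold higher and 4 at least 1.5-fold lower, beside 37.1% and 38.4% of all listed genes. With the median ratio set to 1 these counts were 3 and 4, beside 460 and 986 of all 2179 listed genes. With division by the summed FPKM they were 2 and 4, beside 401 and 986. *Tnfsf4*, the OX40 ligand, had the largest ratio among the 9 ligands (21.1 and 226 FPKM). *Fasl*, the ligand of Fas, had the smallest (74.1 and 26.4 FPKM).

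*Traf1* (ENSMUSG00000026875.7; chromosome 2, 34941750 to 34961772, minus strand) was the most abundant of the 5 genes in both groups. Its mean was 438 FPKM in PBS and 700.1 FPKM in α-DR3, a log2 ratio of 0.68. By level it ranked 33 among the listed genes in PBS and 24 in α-DR3. Of all listed genes 67.7% had a lower ratio. A single PBS library could have been as high as 875 FPKM at this mean, so the means alone do not place any α-DR3 library above both PBS libraries.

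*Traf3* (ENSMUSG00000021277.9; chromosome 12, 111166370 to 111267153, plus strand) had a mean of 12.9 FPKM in PBS and 30.6 FPKM in α-DR3, a log2 ratio of 1.24. No PBS library could exceed 25.9 FPKM, and at least 1 α-DR3 library had 30.6 FPKM or more. The gene went from rank 940 to rank 534 among the listed genes. *Traf1* transcripts outnumbered *Traf3* transcripts 33.9 to 1 in PBS and 22.9 to 1 in α-DR3, by the ratio of their mean FPKM, which needs no scaling between groups. The opposite-strand gene *4930595D18Rik* overlaps 18122 bases of *Traf3*, but the exons of the 2 genes share 0 bases.

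Of the 7 TRAF genes, *Traf4* was the only other 1 listed, with 100.1 FPKM in PBS and 144 FPKM in α-DR3 (log2 ratio 0.53). *Traf2*, *Traf5*, *Traf6* and *Traf7* were not listed. Of 11 genes for proteins that bind TRAFs or limit their signal, 4 were listed. *Tnip3*, an inhibitor of NF-κB activation that binds A20, had 0.99 and 13.8 FPKM, the largest ratio among the listed components of the pathway (log2 ratio 3.80). Its relative *Tnip1* had 111 and 226 FPKM (log2 ratio 1.02), and *Tank*, which binds TRAF3 and the kinase TBK1, had 47.5 and 78.7 FPKM (log2 ratio 0.73). *Traf3ip3* was lower, with 28.2 and 17.8 FPKM (log2 ratio -0.66).

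*Birc3* (ENSMUSG00000032000.10; chromosome 9, 7848699 to 7873186, minus strand) had a mean of 255 FPKM in PBS and 160.0 FPKM in α-DR3, a log2 ratio of -0.67. Its product cIAP2 is a ubiquitin ligase that is recruited to TNF receptors with TRAFs. The gene ranked 69 by level among the listed genes in PBS and 122 in α-DR3. An α-DR3 library could have been as high as 320.0 FPKM at this mean, above the PBS mean, so the means alone do not separate the libraries. Its neighbor *Birc2*, 11634 bases away on the same strand, encodes the close relative cIAP1. *Birc2* was higher in α-DR3, with 70.3 and 111 FPKM (log2 ratio 0.66), but came under 1.5-fold with each scaling between groups. *Birc2* and *Birc3* were the only 2 of 10 IAP genes listed, and they moved apart. *Birc3* had 3.63 times the FPKM of *Birc2* in PBS and 1.44 times in α-DR3, so the ratio within a group was 2.51-fold lower after treatment. This comparison does not depend on a scaling between groups. The longest coding sequences of the 2 genes give proteins of 602 residues for *Birc3* and 612 residues for *Birc2*.

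*Bcl2l1* (ENSMUSG00000007659.11; chromosome 2, 152780668 to 152831728, minus strand) had a mean of 51.0 FPKM in PBS and 28.4 FPKM in α-DR3, a log2 ratio of -0.84. Of all listed genes 18.6% had a lower ratio. Its rank by level went from 339 to 573. An α-DR3 library could have been as high as 56.8 FPKM at this mean, which again leaves the libraries unseparated. The gene has 8 annotated coding transcripts, and the values do not tell the isoforms Bcl-xL and Bcl-xS apart. In PBS there was 3.95 times as much *Bcl2l1* as *Traf3*, and in α-DR3 0.929 times, which is the only change of order among the 5 genes. Without the spread over libraries it was not tested whether these neighbors differed in α-DR3.

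Of 8 anti-apoptotic genes of the Bcl-2 family, 3 were listed. *Bcl2a1d*, whose product A1 is also induced by NF-κB, had 462 FPKM in PBS and 268 FPKM in α-DR3, a log2 ratio of -0.79. *Bcl2l1* kept nearly the same ratio to it, 0.110 in PBS and 0.106 in α-DR3. *Bcl2a1a* had 2.09 and 5.09 FPKM (log2 ratio 1.29). The *Bcl2a1* genes are near-identical copies, so the split of reads between them is uncertain, and *Bcl2*, *Mcl1* and *Bcl2l2* were not listed. Only 2 of 14 pro-apoptotic genes of the family were listed, *Bnip3* with 13.5 and 8.65 FPKM and *Bik* with 20.3 and 27.2 FPKM (log2 ratio 0.42, below 0 after division by the summed FPKM). Among 10 genes of caspases and the apoptosome 5 were listed. *Apaf1*, the scaffold of the apoptosome, had 17.2 and 33.8 FPKM (log2 ratio 0.98), and *Casp2* had 11.7 and 6.66 FPKM (log2 ratio -0.81).

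**Figure D3:**
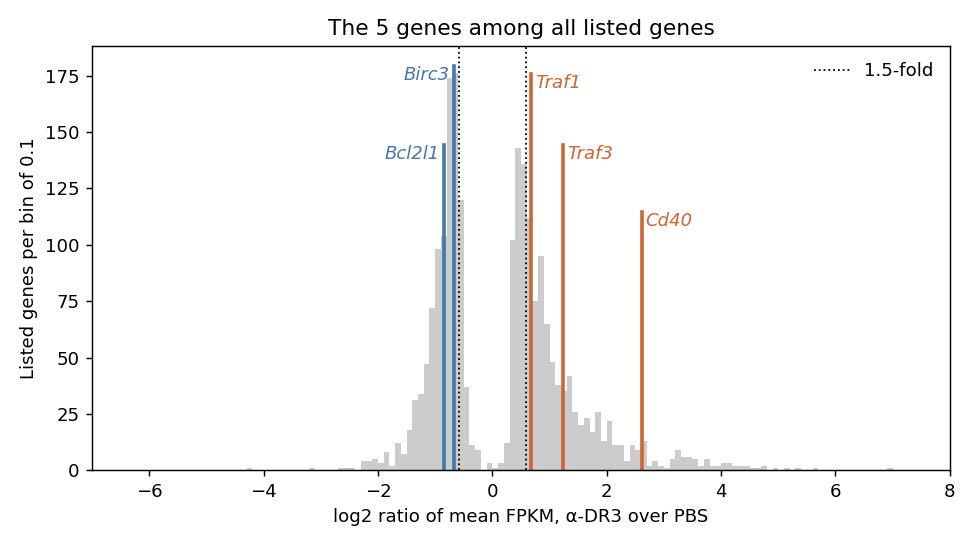
Number of listed genes per bin of 0.1 in the log2 ratio of mean FPKM, α-DR3 over PBS, with vertical lines at the 5 genes and dotted lines at 1.5-fold; 10 genes at 0 in 1 group are left out. Few genes lie near 0 because the table was selected on a difference, and *Cd40* lies in the far right part at 2.61 while *Birc3* (-0.67), *Bcl2l1* (-0.84) and *Traf1* (0.68) lie near the peaks on either side.

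Of the NF-κB subunits, the 2 listed were both of the alternative pathway that TRAF3 and the cIAPs restrain. *Nfkb2*, which encodes p100 and p52, had 105 and 164 FPKM (log2 ratio 0.64), and *Relb* had 67.1 and 121 FPKM (log2 ratio 0.86). Both were at least 1.5-fold higher without scaling, beside 37.1% of all 2179 listed genes. With the median ratio set to 1, 0 of the 2 were, beside 460 of all listed genes. With division by the summed FPKM, 0 of the 2 were, beside 401 of all listed genes. When *Il22* was left out of that sum, 1 of the 2 was, beside 571 of all listed genes. *Nfkb1*, *Rel* and *Rela* were not listed, nor was *Map3k14*, the gene of NIK. Of 6 IκB-like inhibitors, *Nfkbid* had 483 and 223 FPKM (log2 ratio -1.12) and *Nfkbie* 187 and 262 FPKM (log2 ratio 0.49, below 0 after scaling to the summed FPKM). Of 6 kinases upstream of NF-κB, *Ikbke* had 17.8 and 27.9 FPKM (log2 ratio 0.64, under 1.5-fold after each scaling). *Chuk* had 16.2 and 18.6 FPKM (log2 ratio 0.20, below 0 after each scaling). Among 17 enzymes and adaptors that act at the receptors, *Fadd*, the adaptor of caspase 8, had 9.90 and 6.20 FPKM, *Tab1* 6.24 and 3.69 FPKM, and the other 3 listed were under 1.5-fold.

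Over these lists together, 40 of 128 pathway genes other than the 5 were listed, 18 of them at least 1.5-fold higher (45.0%) and 12 at least 1.5-fold lower (30.0%), beside 37.1% and 38.4% of all listed genes. With the median ratio set to 1 the counts were 10 higher and 13 lower, beside 460 and 986 of all 2179 listed genes. With division by the summed FPKM they were 7 higher and 13 lower, beside 401 and 986. The median log2 ratio of the 40 pathway genes was 0.48, and that of all listed genes was 0.39. A list of 36 genes widely described as NF-κB targets, which holds *Cd40*, *Traf1*, *Birc3* and *Bcl2l1*, had 23 listed genes. Of these, 13 were at least 1.5-fold higher (56.5%) and 8 at least 1.5-fold lower (34.8%), with a median log2 ratio of 0.68. With division by the summed FPKM the counts were 8 higher and 8 lower, beside 401 and 986 of all listed genes. With a 2-fold limit they were 8 higher and 1 lower, beside 446 and 257 of all listed genes. *Ccr7*, a receptor for homing to lymph nodes, had 54.2 and 294 FPKM, and the chemokine gene *Ccl17* had 2.22 and 37.1 FPKM. On the lower side with *Bcl2l1* and *Birc3* stood *Il2* (76.8 and 29.4 FPKM), *Gadd45b* (1299 and 764 FPKM), *Junb* (4051 and 2369.9 FPKM) and *Tnf* (184 and 116 FPKM).

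**Figure D4:**
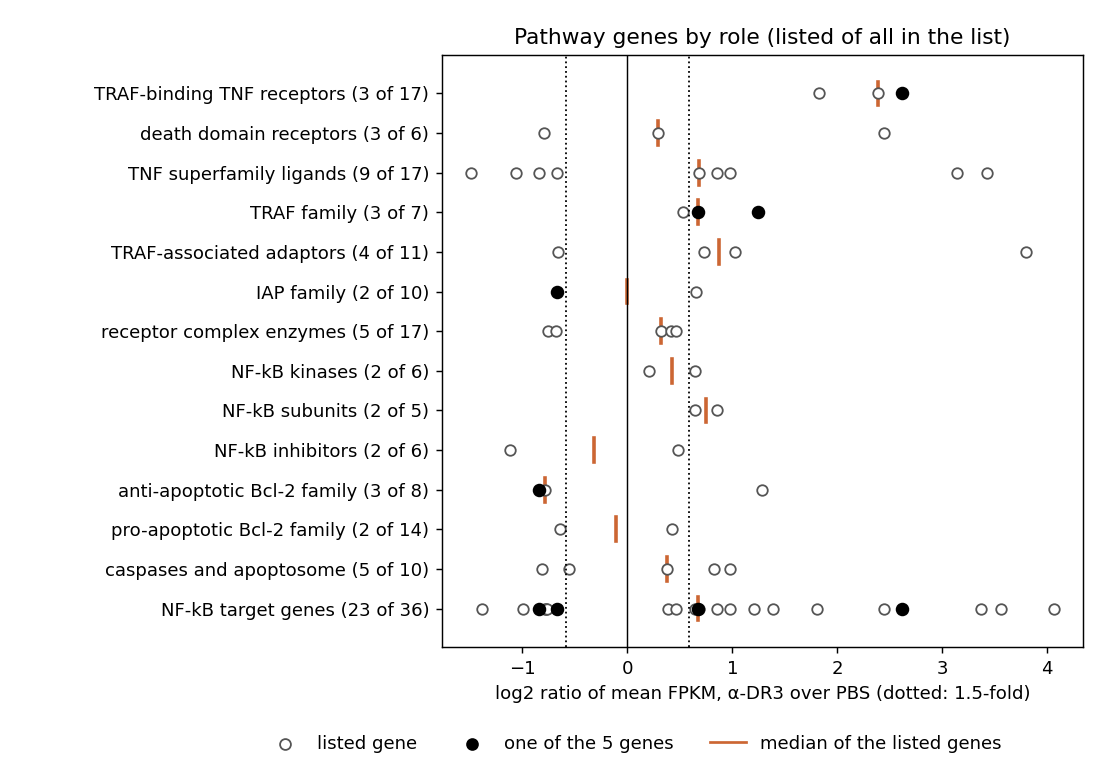
Log2 ratio of mean FPKM, α-DR3 over PBS, for each listed gene of the pathway lists, with filled points for the 5 genes, a vertical bar for the median of each list and dotted lines at 1.5-fold. The TRAF-binding receptors lie right of 1.5-fold, the IAP genes lie on both sides, and 2 of the 3 anti-apoptotic Bcl-2 genes lie left of it.

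The listed genes outside all lists with levels most like each of the 5 were found by distance between the pair of log2(mean FPKM + 1) values, so the likeness rests on 2 group means only. For *Cd40* these were *Palld* (4.33 and 22.9 FPKM in PBS and α-DR3), *Sphk1* (4.34 and 30.8 FPKM) and *Npnt* (3.53 and 24.6 FPKM). The nearest to *Traf1* was *Plscr1* (423 and 741 FPKM), followed by *Psme2* and *S100a4*. The nearest to *Traf3* was *Hspb1* (12.4 and 32.4 FPKM), followed by *Slc15a4* and *Eng*. For *Birc3* these were *Skap1* (271 and 156 FPKM), *Gltscr2* and *Cdk11b*, and for *Bcl2l1* they were *Acaa2* (52.0 and 28.3 FPKM), *Cd97* and *Hist3h2a*.

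FPKM divides by transcript length, so fragment counts give these genes other weights. The mean CPM over all libraries, which scales fragments for library size and not for length, was 917 for *Traf1*, 453 for *Birc3*, 85.4 for *Bcl2l1*, 68.3 for *Traf3* and 16.8 for *Cd40*, and its median over listed genes was 23.6. The length at which mean CPM and mean FPKM agree was 1104 bases for *Cd40*, 1613 bases for *Traf1*, 2152 bases for *Bcl2l1*, 2182 bases for *Birc3* and 3138 bases for *Traf3*. The table gives gene lengths of 5531 bases for *Cd40*, 8600 bases for *Traf1*, 11948 bases for *Bcl2l1*, 8453 bases for *Birc3* and 25906 bases for *Traf3*. The agreeing length was 0.121 to 0.258 of the listed length for the 5 genes, against a median of 0.508 over all listed genes. It also carries any difference in scaling between CPM and FPKM. GENCODE M21 gives 4 coding transcripts of *Traf3*, from 645 to 7060 bases long, and 4 of *Cd40*, from 391 to 2986 bases. The FPKM of a gene with transcripts of such unequal length depends on how the authors' quantification shared fragments among them.

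The table holds only genes selected for a difference, so it shows which markers changed in level and is no check of how pure the sorted cells were. Of 13 ILC3 markers 7 were listed. *Il22*, the main cytokine of ILC3s, had 17424 FPKM in PBS and 44537 FPKM in α-DR3, and *Ncr1*, which encodes the receptor NKp46 of an ILC3 subset, had 460.2 and 279 FPKM. Of 7 T cell and 7 epithelial markers 0 were listed, which says nothing of their level. Of 10 stromal and endothelial markers 4 were listed, with summed levels of 5.98 FPKM in PBS and 14.8 FPKM in α-DR3.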

How the data were processed

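Poly(A) RNA of sorted ILC3s was sequenced in 4 libraries, 2 per group. Per the study's methods, the authors aligned read pairs with STAR 2.5 (build GRCm38.p5), estimated gene levels with RSEM 1.2 from GENCODE M16 models and compared groups with edgeR 3.18.1. The versions are those of the submitters' processing notes. The authors deposited 1 table with the mean FPKM of each group (the PBS group is headed wt), a gene length and a mean log2 CPM over all libraries. The deposited p-value column was read only to count genes at 0.05 or more, which were 0. The authors' fold changes, likelihood ratios and FDR values are not used here, and values of the paper's supplement are not used here. Ratios of deposited mean FPKM were computed without a pseudocount, and genes at least 1.5-fold apart were counted over the whole table. No test was run, because no single libraries entered. The planned results were descriptions for this reason.

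The 5 genes and the gene lists were chosen with earlier results of these data known. The genes named are the 5, listed members of the lists and, for each of the 5, the 3 listed genes outside the lists at the smallest distance on log2(mean FPKM + 1). Gene IDs of 2149 of the 2179 listed genes matched a current symbol, and 3 genes of the lists were found under older symbols (*Adgre1*, *Otulin* and *Spi1*). Gene coordinates are from GENCODE M21, whose build GRCm38 is that of the authors, and promoter sequences from RefSeq on GRCm38.p6. The counting of ratios and the motif search were tested on simulated data. Python 3.11.15, numpy 2.4.6, pandas 2.3.3 and matplotlib 3.10.9 were used. Alternatives were a pseudocount of 1, a filter that kept genes above 5 FPKM in a group, a 2-fold limit and scalings of the group means. The promoter of *Cd40* is not analysed here. Some genes are not reported here.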

Additional observations from a re-analysis of the deposited data

How the results depend on the processing

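All 5 genes kept their direction under a pseudocount of 1 and under each of 3 scalings between groups, and of the 5 *Traf1* alone came under 1.5-fold, under each scaling. With a pseudocount of 1 the log2 ratio was 2.36 for *Cd40*, 1.18 for *Traf3* and -0.82 for *Bcl2l1*, and it stayed at 0.68 for *Traf1*. With the median ratio of the listed genes set to 1, a shift of 0.39, it was 2.23 for *Cd40*, 0.86 for *Traf3*, 0.29 for *Traf1*, -1.06 for *Birc3* and -1.23 for *Bcl2l1*. With division by the summed FPKM, a shift of 0.50, it was 2.12, 0.75, 0.18, -1.17 and -1.34 in the same order. Without *Il22* in the sum, an alternative chosen after seeing the data and a shift of 0.25, it was 2.36, 0.99, 0.42, -0.93 and -1.10.

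Of all listed genes, 808 were at least 1.5-fold higher and 836 lower (49.1% higher). The counts were 517 and 625 among genes above 5 FPKM in a group (45.3% higher), 446 and 257 with a 2-fold limit (63.4% higher), 460 and 986 with the median ratio set to 1 (31.8% higher), 401 and 986 with the summed FPKM (28.9% higher) and 571 and 974 without *Il22* in the sum (37.0% higher). The median and the sum are those of a table selected on a difference, and they need not be neutral: 261 genes lay between 0 and 0.5 in log2 ratio and 60 between 0 and -0.5. Of 156 counts over single gene lists under these alternatives, leaving out counts reported as 0, 109 were within 1.5 times the count reported and 47 were not. No paired analysis was possible because only the group means of the deposited table were used, and for the same reason no replicate was left out. The spread between libraries and their depth, which limit every ratio here, were not analysed.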
